A study of Homo sapiens with 54 samples.

Results

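Gene expression was compared between 1 h and 24 h after a single dose of 1 µM dopamine in cultures of medium spiny neuron-like cells. The cultures held markers of other cell types as well. The 6 libraries, 3 labelled as acute dosing with RNA taken at 1 h and 3 labelled as acute dosing at 24 h, were chosen by their titles out of 53 libraries with a table, of which 30 were read here. The cells were hMSN-like cells (medium spiny neuron-like cells) differentiated with activin A from H9, an established human embryonic stem cell line, and dopamine was dissolved in ascorbic acid and given after part of the medium had been removed. Libraries from 3 cultures of the same experiment given PBS served as the control of both times, so that comparisons of 1 h and of 24 h with PBS share those libraries. Another 6 libraries of the experiment came from cultures dosed daily over several days (chronic dosing) and collected at the same intervals after their final dose, and 6 more from cultures given a single dose of 1 mM dopamine in a separate experiment. The time at which the PBS cultures were collected is not given in the sources used here, nor whether their medium was changed in the same way, so that dopamine, ascorbic acid and handling cannot be told apart in comparisons with PBS, and a change of the cultures with age cannot be told apart from time after the dose.

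Medium spiny neurons are the main neurons of the striatum, and dopamine acts on them through receptors of the D1 family, which raise cyclic AMP, and of the D2 family, which lower it. Cyclic AMP, calcium and the ERK pathway lead to phosphorylation of CREB and of the partners of the serum response factor, which switch on immediate early genes without new protein synthesis. Many immediate early genes, among them the FOS, JUN, EGR and NR4A families, encode transcription factors with short-lived mRNAs, so that a rise after a stimulus is typically brief.

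The stretch of 250 bases before the transcription start is shown for 4 immediate early genes that were among the DEGs higher at 1 h, EGR1, FOS, FOSB and FOSL2, and for TXNIP, which was lower at 1 h. The sequences are from RefSeq on GRCh38.p14, written 5′ to 3′ on the strand of the gene, at chr5:138465229-138465478 for EGR1, chr14:75278578-75278827 for FOS, chr19:45467746-45467995 for FOSB and chr2:28392608-28392857 for FOSL2, all on the plus strand, and at chr1:145996580-145996829 on the minus strand for TXNIP. Capitals mark every match to a searched motif on either strand.

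EGR1: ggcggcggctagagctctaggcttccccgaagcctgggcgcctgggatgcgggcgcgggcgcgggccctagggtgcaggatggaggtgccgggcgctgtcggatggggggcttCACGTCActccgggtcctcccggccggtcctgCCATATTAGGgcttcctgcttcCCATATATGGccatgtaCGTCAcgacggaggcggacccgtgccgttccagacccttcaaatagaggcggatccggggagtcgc
FOS: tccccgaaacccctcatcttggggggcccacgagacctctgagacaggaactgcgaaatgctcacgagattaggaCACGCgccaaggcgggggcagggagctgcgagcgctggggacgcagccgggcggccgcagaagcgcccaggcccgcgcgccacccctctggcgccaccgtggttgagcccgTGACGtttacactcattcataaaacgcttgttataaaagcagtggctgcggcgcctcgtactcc
FOSB: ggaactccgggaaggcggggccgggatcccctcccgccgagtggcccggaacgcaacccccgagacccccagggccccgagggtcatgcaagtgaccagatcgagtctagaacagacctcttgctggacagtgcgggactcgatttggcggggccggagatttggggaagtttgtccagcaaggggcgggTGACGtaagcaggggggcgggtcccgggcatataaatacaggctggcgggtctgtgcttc
FOSL2: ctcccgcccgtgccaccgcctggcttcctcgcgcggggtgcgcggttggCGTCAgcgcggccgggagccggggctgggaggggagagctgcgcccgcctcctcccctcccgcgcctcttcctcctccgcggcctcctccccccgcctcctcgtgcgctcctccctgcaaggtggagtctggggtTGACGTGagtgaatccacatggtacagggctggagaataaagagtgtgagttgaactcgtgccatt
TXNIP: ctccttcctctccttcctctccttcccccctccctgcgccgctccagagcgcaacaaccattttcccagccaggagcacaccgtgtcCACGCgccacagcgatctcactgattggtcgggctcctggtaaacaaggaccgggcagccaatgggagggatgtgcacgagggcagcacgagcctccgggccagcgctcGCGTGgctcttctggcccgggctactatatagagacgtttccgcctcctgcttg

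The motifs searched were the cAMP response element TGACGTCA, which CREB binds, its short form TGACG, the CArG box of serum response factor, the AP-1 site TGANTCA and the core of the hypoxia response element, ACGTG or GCGTG. In EGR1, short forms lay 135 and 66 bases before the start and CArG boxes 105 and 83 bases before it. In FOS the short form lay 64 bases, in FOSB 60 bases, and in FOSL2 201 and 66 bases before the start. TXNIP held no short form, and its hypoxia cores lay 163 and 54 bases before the start. Such cores were also found 137 bases before the start of EGR1, 175 before that of FOS and 64 before that of FOSL2, and in EGR1 and FOSL2 the core overlapped a short form. Sequences were at hand for 36 of the 48 DEGs higher at 1 h and for 7 of the 9 lower. The short form was found in 13 of the 36 and in 21.2% of all 35116 promoters, a full element in 1 of the 36 (SKIL) and in 1.65% of all, a CArG box in 1 of the 36 (EGR1) and in 1.16% of all, an AP-1 site in 1 of the 36 (FST) and in 6.57% of all, and a hypoxia core in 22 of the 36 and in 43.2% of all. Of the 7 lower, 2 held the short form (TICRR and STAG3L5P-PVRIG2P-PILRB), 1 a full element (STAG3L5P-PVRIG2P-PILRB), 1 a CArG box (TICRR), 1 an AP-1 site (GPNMB) and 3 a hypoxia core (TXNIP, SIX4 and MYBL2). For each DEG only the first listed promoter of the gene was searched, while the shares of all cover every promoter listed. A match is a description of these letters and not a binding site.

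The libraries held 5755919, 8044808 and 8629828 exon reads at 1 h and 7409691, 11921298 and 10284731 at 24 h. On a transcript of 2000 bases, 3 reads corresponded to 0.478 to 0.955 TPM (the deposited level, normalized for exon length and depth), which covers counting error only. Replicate 2 at 1 h stood apart, with 31.2% of its gene reads in introns and 12.6% of its exon reads on mitochondrial genes, against 23.8% and 20.2%, and 7.50% and 5.07%, in the other libraries at 1 h. Replicate 1 at 24 h had 10.3% mitochondrial reads, replicate 2 of PBS 12.4% and replicate 2 of chronic dosing at 1 h 12.8%, and results without these 4 libraries were added after the data had been seen. Such fits rest on fewer libraries at 1 h, at 24 h, in PBS and in chronic dosing at 1 h. Markers of medium spiny neurons were present at a summed level of 146 to 209 TPM at 1 h, 172 to 201 at 24 h and 136 to 182 in PBS over 19 genes, but the opioid peptide gene PDYN had at most 3 reads in every library. The cultures also held markers of other cells. The 6 genes of neural progenitors summed to 2189 to 3438 TPM at 1 h, 2699 to 3209 at 24 h and 3114 to 4127 in PBS. The 4 choroid plexus genes summed to 1145 to 1512 TPM at 1 h, 1551 to 2049 at 24 h and 2081 to 2638 in PBS, the 6 genes of dividing progenitors to 818 to 854, 962 to 1041 and 979 to 1180, and the 4 genes of glutamatergic neurons to 690.1 to 803, 857 to 905 and 957 to 1060. Markers of 5 genes of the oligodendrocyte lineage summed to 6.22 to 11.1 TPM at 1 h, 3.74 to 4.602 at 24 h and 4.043 to 5.855 in PBS. The 6 astrocyte genes summed to 125 to 152, 159.9 to 160.4 and 126.4 to 145.1. NKX2-1 and LHX8 of interneurons, AIF1, CX3CR1 and P2RY12 of microglia and PECAM1 and CDH5 of endothelium had at most 3 reads in each of the 9 libraries. On exon reads of all libraries, no marker gene passed the test between 1 h and 24 h with edgeR (adjusted p under 0.05). With total gene reads, the medium spiny neuron gene PDE10A was higher at 1 h (log2(fold change) 0.77, adjusted p = 0.0119) and the glutamatergic gene TBR1 lower (-0.63, adjusted p = 0.0309). Without the 4 libraries, TBR1 (-0.41, adjusted p = 0.0455), AURKB of dividing progenitors (-0.53, adjusted p = 0.0491) and SLC1A3 of astrocytes (-0.43, adjusted p = 0.0388) were lower (1.48% of all genes were). At an unadjusted p under 0.05 there were 2 of 18 tested medium spiny neuron genes, 2 of 4 glutamatergic, 2 of 6 dividing progenitor, 2 of 4 oligodendrocyte, 1 of 6 mesenchymal and 1 of 4 choroid plexus genes, against 11.4% of all genes, and DESeq2 called TBR1 lower (0.931% of all genes were). In bulk RNA, fewer cells of a type and less RNA per cell cannot be told apart, and the part of cell composition in the differences between the times was not tested.

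Exon reads were compared with edgeR's quasi-likelihood test and Benjamini-Hochberg adjustment over 16541 genes, and a gene was called a DEG if its adjusted p was under 0.05, its level differed at least 2-fold (1 on the log2 scale) and the mean of the higher group reached 1 TPM. Between 1 h and 24 h, 57 genes were DEGs, 48 higher at 1 h (0.29% of the genes tested) and 9 lower (0.0544%). With no threshold on the fold, 74 genes passed the test as higher at 1 h (0.447%) and 24 as lower (0.145%), while the median log2(fold change) of all genes was 0.01. Among the largest changes were those of immediate early transcription factors, with EGR1 30.2-fold and FOS 25.2-fold higher at 1 h, and the most clearly lower gene was TXNIP, 4.84-fold lower. The 3 libraries of 1 h and the 3 of 24 h did not overlap in TPM for any of the 57, as was so for 1190 of all genes in the higher direction (7.19%) and 1149 in the lower (6.95%). In 39 of the 48 genes higher at 1 h, replicate 2 was the lowest of the 3 libraries at 1 h, and in 33 replicate 3 was the highest. Replicate 2 of 1 h is among the 4 libraries left out for their mitochondrial reads. The count of DEGs was 81 without that replicate alone and 156 without all 4, and its part in the larger count was not tested. The count was 31 without replicate 1 of 24 h, 35 without replicate 2 and 34 without replicate 3, and 25 in a fit of the 6 libraries alone. Among the genes higher, 25 passed the test whichever of the 6 libraries was left out, and 2 of those lower did (TXNIP and MYBL2). Counted on total gene reads (exon and intron reads together, 22537 genes tested), 62 genes passed as higher at 1 h (0.275%) and 47 as lower (0.209%), and 37 of the 57 DEGs passed.

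**Figure D1:**
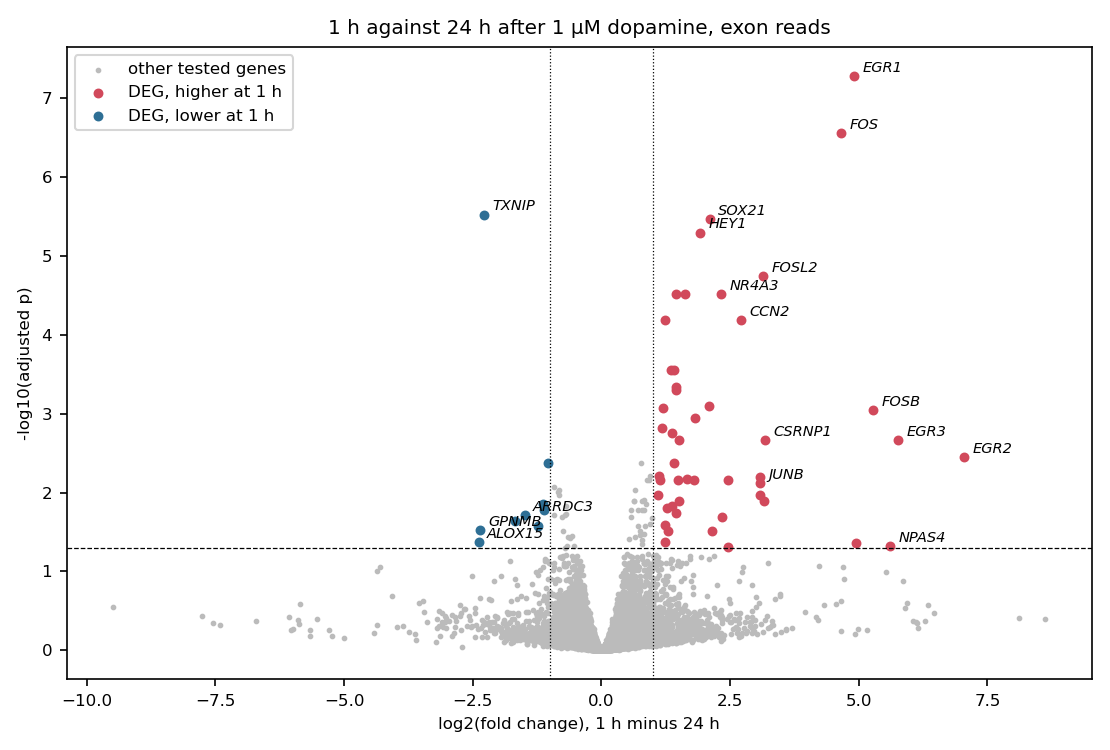
Log2(fold change) between 1 h and 24 h (x axis, positive when higher at 1 h) against −log10 of the adjusted p (y axis) for 16541 genes, one point per gene, with DEGs in color. Dashed and dotted lines mark the thresholds. EGR1, FOS and TXNIP lie farthest up, and the fitted positions of EGR2 and NPAS4, which had 1 read in all at 24 h, depend on the prior count of the fit.

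EGR1, EGR2 and EGR3, which encode zinc finger transcription factors, were far higher at 1 h than at 24 h. EGR1 (chromosome 5, 138465479 to 138469303, plus strand of GRCh38) was at 256, 143 and 206 TPM at 1 h and 4.24, 9.24 and 7.25 TPM at 24 h, in replicates 1, 2 and 3, and at 11.5, 6.89 and 11.9 TPM in PBS. All libraries at 1 h were far above every library of the other groups, and the difference passed the test (log2(fold change) 4.92, SE 0.24, adjusted p = 5.18e-08). EGR3 was at 22.8, 10.9 and 20.6 TPM at 1 h and 0.547, 0.317 and 0.153 TPM at 24 h (log2(fold change) 5.76, SE 0.79, adjusted p = 0.00213). In EGR2 the 24 h libraries held a single read, against 131 exon reads in the 3 libraries at 1 h, a ratio per exon read of 173 (exact 95% interval of counting error 30.5 to 6883). The level of EGR2 at 1 h was even across the replicates, at 5.35, 5.45 and 6.16 TPM. EGR2 passed with exon reads (adjusted p = 0.00351) but not with total gene reads (adjusted p = 0.0874). EGR4, the remaining member, was at 6.44, 0.1696 and 3.44 TPM at 1 h and 0, 0 and 0.162 TPM at 24 h, with replicate 2 of 1 h close to the highest library of 24 h, and did not pass (adjusted p = 0.101).

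Members of the AP-1 family, which bind DNA as pairs of FOS and JUN proteins, differed in how far they moved. FOS (chromosome 14, 75278826 to 75282230, plus strand) was at 95.5, 54.9 and 104 TPM at 1 h and 3.45, 3.6 and 3.27 TPM at 24 h (log2(fold change) 4.65, SE 0.26, adjusted p = 2.74e-07). The libraries at 24 h lay below those of PBS, at 7.36, 7.73 and 6.195 TPM. FOSB (chromosome 19, 45467995 to 45475179, plus strand), a splice form of which builds up with repeated stimulation, was at 14.6, 6.96 and 18.6 TPM at 1 h and 0.743, 0.172 and 0.139 TPM at 24 h (log2(fold change) 5.29, SE 0.66, adjusted p = 0.000902). Every library of 24 h and of PBS was below 1 TPM. FOSL2 was at 24.6, 16.01 and 26.3 TPM at 1 h and 2.18, 2.54 and 3.12 TPM at 24 h (log2(fold change) 3.14, SE 0.26, adjusted p = 1.78e-05). JUNB was at 208, 43.1 and 295 TPM at 1 h and 13.8, 26.6 and 23.4 TPM at 24 h (log2(fold change) 3.08, SE 0.49, adjusted p = 0.00759, and 0.0519 to 0.069 without replicate 1, 2 or 3 of 24 h). Its replicate 2 of 1 h lay far below the other libraries at 1 h while still above every library at 24 h. JUN was at 159, 116 and 188 TPM at 1 h and 121, 164 and 174 TPM at 24 h (log2(fold change) 0.07, adjusted p = 0.875). JUND was at 724, 255 and 889 TPM at 1 h and 348, 577 and 600.5 TPM at 24 h (log2(fold change) 0.31, adjusted p = 0.76), and in both genes the times overlapped. FOSL1, at 5.397, 0.853 and 4.09 TPM at 1 h and 1.22, 0.338 and 1.43 TPM at 24 h, did not pass either (adjusted p = 0.443).

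**Figure D2:**
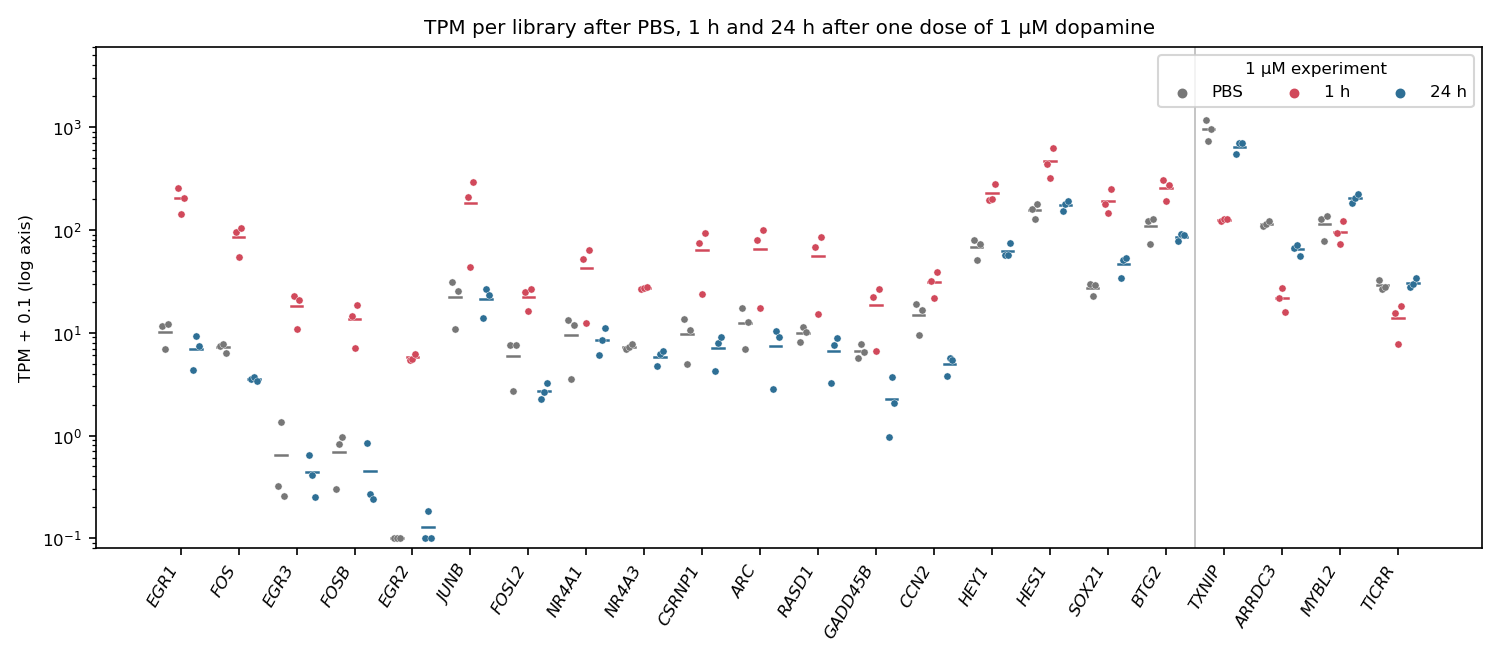
TPM plus 0.1 on a log axis for 22 genes in the PBS, 1 h and 24 h libraries of the 1 µM experiment, one dot per library with a line at the mean. Genes left of the vertical line were higher at 1 h than at 24 h, and TXNIP, ARRDC3, MYBL2 and TICRR to its right were lower. For EGR1 the dots of 1 h lie between 143 and 256 TPM, above all others.

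The nuclear receptors NR4A1 and NR4A3, which act without a known ligand, were both higher at 1 h. NR4A3 was even across replicates, at 26.2, 27.4 and 27.8 TPM at 1 h and 4.65, 6.11 and 6.53 TPM at 24 h (log2(fold change) 2.32, SE 0.21, adjusted p = 3.01e-05). NR4A1 spread more, at 52.2, 12.4 and 63.4 TPM at 1 h and 5.91, 8.299 and 10.9 TPM at 24 h (log2(fold change) 2.35, SE 0.44, adjusted p = 0.0202, and 0.0637 to 0.155 with any library left out but replicate 2 of 1 h). Its replicate 2 of 1 h was just above the highest library at 24 h. NR4A2, which dopamine neurons need, was at 39.99, 39.5 and 44.4 TPM at 1 h and 23.7, 24.7 and 29.2 TPM at 24 h without overlap, but did not pass (log2(fold change) 0.75, adjusted p = 0.114). NPAS4, a transcription factor induced by neuronal activity, had 50 reads at 1 h and 1 at 24 h, a ratio per exon read of 66.0 (exact 95% interval of counting error 11.3 to 2659), and passed (adjusted p = 0.0472, and 0.0544 to 0.292 with any one of the 6 libraries left out). CSRNP1, a nuclear protein of the early response, was at 74.7, 23.7 and 92.4 TPM at 1 h and 4.12, 7.89 and 9.07 TPM at 24 h (log2(fold change) 3.18, SE 0.44, adjusted p = 0.00213). ATF3, a stress-induced transcription factor, was at 34.7, 18.2 and 32.4 TPM at 1 h and 13.5, 12.4 and 10.02 TPM at 24 h (log2(fold change) 1.26, adjusted p = 0.0158, and 0.0924 to 0.114 without replicate 1 of 1 h or replicate 2 or 3 of 24 h). For both genes every library of 1 h lay above those of 24 h. Of the 28 immediate early genes tested, 14 were higher at 1 h (0.447% of all genes were), none was lower, and 14 did not pass, with a median log2(fold change) of 1.58 against 0.01 over all genes. Setting EGR2 and NPAS4 to the lower bound of their ratio could not move this median, since both bounds (4.93 and 3.5 on the log2 scale) lie above it. With total gene reads 10 were higher (0.275% of all genes), and without the 4 libraries rich in mitochondrial reads 23 were (2.13%).

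IER3 and BHLHE40, which complete the 14, stood apart from PBS at 24 h rather than at 1 h. IER3, an early response gene linked to cell survival, was at 44.3, 43.8 and 66.3 TPM at 1 h, 21.4, 25.96 and 27.4 TPM at 24 h and 63.9, 57.7 and 60.9 TPM in PBS (between the times, log2(fold change) 1.11, adjusted p = 0.0108, and 0.0635 to 0.0735 without replicate 1, 2 or 3 of 24 h). Its log2(fold change) against PBS was -0.25 at 1 h (adjusted p = 0.493) and -1.35 at 24 h (adjusted p = 0.00139). BHLHE40, a repressor of the circadian clock, was at 27.5, 13.6 and 27.4 TPM at 1 h, 5.87, 9.697 and 8.99 TPM at 24 h and 22.1, 17.3 and 24.9 TPM in PBS (between the times, log2(fold change) 1.51, adjusted p = 0.00213). Against PBS it was at 0.08 on the log2 scale at 1 h (adjusted p = 0.88) and -1.44 at 24 h (adjusted p = 0.00197). FST, which encodes the activin-binding protein follistatin and was singled out after its values were seen, followed the same order. It was at 30.99, 42.4 and 65.2 TPM at 1 h, 20.5, 17.8 and 17.1 TPM at 24 h and 52.04, 26.7 and 53.4 TPM in PBS (between the times, log2(fold change) 1.37, adjusted p = 0.0149, and 0.0563 to 0.129 without replicate 3 of 1 h or replicate 2 or 3 of 24 h).

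Among genes of synaptic plasticity and of secreted proteins that neuronal activity induces, 4 of 20 tested were higher at 1 h (0.447% of all genes were) and none was lower, with a median log2(fold change) of 0.37. ARC, which encodes a synaptic protein that controls AMPA receptor traffic, was at 79.3, 17.3 and 100.5 TPM at 1 h and 2.76, 10.2 and 9.02 TPM at 24 h (log2(fold change) 3.16, SE 0.54, adjusted p = 0.0128, and 0.0582 to 0.0828 without replicate 1 of 1 h or replicate 1, 2 or 3 of 24 h). Its replicate 2 of 1 h, at 17.3 TPM, was close to the highest PBS library, at 17.1 TPM, and ARC did not pass with total gene reads (adjusted p = 0.0674). CCN2, a matrix-associated signaling protein, was at 31.6, 21.9 and 39.2 TPM at 1 h, 3.73, 5.59 and 5.28 TPM at 24 h and 18.8, 9.39 and 16.5 TPM in PBS (log2(fold change) 2.71, SE 0.26, adjusted p = 6.45e-05). CCN1, its relative, was at 33.4, 17.8 and 42.6 TPM at 1 h and 5.82, 8.74 and 7.89 TPM at 24 h (log2(fold change) 2.08, SE 0.25, adjusted p = 0.000799). In both genes every library of 1 h was above those of 24 h. NPTX1, a neuronal pentraxin that clusters AMPA receptors, was at 79.9, 42.8 and 91.5 TPM at 1 h and 26.0, 35.7 and 39.2 TPM at 24 h (log2(fold change) 1.12, adjusted p = 0.00616, and 0.0615 without replicate 1 of 24 h). The neurotrophin gene BDNF was at 3.45, 5.09 and 4.22 TPM at 1 h and 3.97, 3.33 and 3.19 TPM at 24 h and did not pass (adjusted p = 0.667), nor did HOMER1, VGF or SCG2.

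Among genes that carry or damp signals, few passed the test. Of 18 genes of the cAMP and CREB pathway, 2 were higher at 1 h (SIK1B and RGS2, median 0.24, against 0.447% of all genes higher). SIK1B, a copy of the salt-inducible kinase SIK1, was at 152, 81.1 and 187 TPM at 1 h and 16.4, 28.7 and 34.03 TPM at 24 h (log2(fold change) 2.46, adjusted p = 0.00689, and 0.0557 to 0.0657 without replicate 1 or 2 of 24 h). SIK1 itself was at 15.4, 12.98 and 24.9 TPM at 1 h and 1.32, 4.89 and 4.88 TPM at 24 h (log2(fold change) 2.33, adjusted p = 0.304), and since the copies are near-identical, reads cannot be assigned between them with certainty. RGS2, which shortens G protein signals, was at 75.3, 67.1 and 79.4 TPM at 1 h and 39.8, 48.1 and 46.9 TPM at 24 h (log2(fold change) 0.79, adjusted p = 0.0164, and 0.071 to 0.105 without replicate 1, 2 or 3 of 24 h). RGS16, the other of 16 RGS genes past the test, was at 138, 54.5 and 135 TPM at 1 h and 28.2, 38.2 and 38.7 TPM at 24 h (log2(fold change) 1.67, adjusted p = 0.00678, and 0.0554 to 0.0599 without replicate 1 or 3 of 24 h). RASD1, a small GTPase of the Ras family, was at 67.7, 14.96 and 84.2 TPM at 1 h and 3.15, 7.47 and 8.82 TPM at 24 h (log2(fold change) 3.09, SE 0.48, adjusted p = 0.00629, and 0.054 without replicate 1 of 24 h). In RGS16 and RASD1 replicate 2 was the low library of 1 h. None of the 17 feedback inhibitors of ERK passed with edgeR (median 0.20), with 5 at an unadjusted p under 0.05 and 1 (DUSP10) called higher by DESeq2 (1.61% of all genes were), while without the 4 libraries rich in mitochondrial reads DUSP1, DUSP2 and DUSP4 were higher (2.13% of all genes were). DUSP1, a phosphatase of MAP kinases, was at 68.3, 40.6 and 97.2 TPM at 1 h and 38.7, 43.5 and 41.2 TPM at 24 h, where replicate 2 of 1 h overlapped the later libraries (adjusted p = 0.388, and 0.00205 without the 4 libraries). Dopamine receptor transcripts were at low levels. DRD1 was at 5.05, 4.09 and 6.08 TPM at 1 h and 2.503, 4.03 and 2.29 TPM at 24 h (adjusted p = 0.681). DRD2 was at 3.87, 2.74 and 2.43 TPM at 1 h and 3.79, 1.703 and 2.25 TPM at 24 h (adjusted p = 0.871). None of the 6 dopamine and adenosine receptors tested passed with edgeR or DESeq2 or had an unadjusted p under 0.05.

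Regulators of mRNA tails and decay gave 3 genes higher at 1 h out of 11 (median 0.74), against 0.447% of all genes, and 1 with total gene reads. BTG2, which promotes deadenylation and slows division, was at 306, 190.3 and 272 TPM at 1 h and 77.3, 91.1 and 88.6 TPM at 24 h (log2(fold change) 1.63, SE 0.15, adjusted p = 3.01e-05). ZFP36, which marks AU-rich mRNAs for decay, was at 34.5, 9.57 and 18.2 TPM at 1 h and 6.03, 3.39 and 4.68 TPM at 24 h (log2(fold change) 2.15, adjusted p = 0.0308, and 0.0632 to 0.215 without replicate 1 of 1 h or replicate 1, 2 or 3 of 24 h). Its relative ZFP36L2 was at 81.0, 61.9 and 109 TPM at 1 h and 41.7, 53.1 and 61.2 TPM at 24 h (log2(fold change) 0.74, adjusted p = 0.0307, and 0.0813 to 0.183 with any library left out but replicate 2 of 1 h). All libraries of 1 h were above those of 24 h in these 3 genes, with the narrowest gap in ZFP36L2. The poly(A) polymerase gene TENT5B was at 5.08, 3.55 and 3.43 TPM at 1 h and 0.385, 0.803 and 5.502 TPM at 24 h, and its highest library was one of 24 h (adjusted p = 0.733). GADD45B, a stress-induced gene tied to DNA demethylation, was at 22.4, 6.603 and 26.6 TPM at 1 h and 0.8599, 3.58 and 1.99 TPM at 24 h (log2(fold change) 3.08, SE 0.52, adjusted p = 0.0108, and 0.0657 to 0.085 without replicate 1 or 3 of 24 h), and was the one gene past the test of 12 GADD45 and p53 genes. It missed the threshold with total gene reads (adjusted p = 0.0513).

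Targets of Notch and BMP signaling, which keep neural progenitors from differentiating, included 4 genes higher at 1 h of 14 tested (HEY1, SMAD7, HES1 and ID2), against 0.447% of all genes, and none lower, with a median of 0.71. HES1, the classical Notch effector, was at 435, 322 and 631 TPM at 1 h, 152, 178 and 192 TPM at 24 h and 159.5, 128 and 176 TPM in PBS (log2(fold change) 1.45, SE 0.17, adjusted p = 0.000494). HEY1, a related repressor, was at 195, 200.2 and 282 TPM at 1 h, 56.4, 56.9 and 74.7 TPM at 24 h and 79.7, 50.6 and 73.04 TPM in PBS (log2(fold change) 1.91, SE 0.14, adjusted p = 5.05e-06). In both genes the 24 h libraries overlapped those of PBS and every 1 h library lay above. SMAD7, a feedback inhibitor of TGF-β and BMP signals, was at 24.7, 18.9 and 46.8 TPM at 1 h and 8.38, 8.55 and 9.04 TPM at 24 h (log2(fold change) 1.82, SE 0.23, adjusted p = 0.00112). ID2, an inhibitor of differentiation factors, was at 161, 144 and 199.7 TPM at 1 h, 78.1, 103 and 90.7 TPM at 24 h and 67.4, 39.4 and 73.5 TPM in PBS (between the times, log2(fold change) 0.95, adjusted p = 0.0062, and 0.054 to 0.0672 without replicate 1 or 3 of 24 h). It was still above PBS at 24 h (log2(fold change) 0.58, adjusted p = 0.0458). ID4, its relative, did not pass between the times (log2(fold change) 0.03, adjusted p = 0.963), at 407, 523 and 600.4 TPM at 1 h, 444, 563 and 584 TPM at 24 h and 223, 167 and 237 TPM in PBS. All its dopamine libraries lay above those of PBS, by 1.32 on the log2 scale at 1 h (adjusted p = 7.18e-05) and 1.30 at 24 h (adjusted p = 0.000187).

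Other DEGs higher at 1 h are named here after their values were seen. SOX21, a repressor in neural progenitors, was at 180.0, 145 and 248 TPM at 1 h, 34.03, 51.3 and 52.99 TPM at 24 h and 29.4, 22.9 and 29.2 TPM in PBS (log2(fold change) 2.11, SE 0.15, adjusted p = 3.43e-06). It was still above PBS at 24 h (log2(fold change) 0.70, adjusted p = 0.0209). Its antisense neighbour SOX21-AS1 was at 23.9, 25.1 and 35.9 TPM at 1 h, 9.73, 15.4 and 15.6 TPM at 24 h and 7.51, 5.14 and 7.64 TPM in PBS (log2(fold change) 1.13, adjusted p = 0.00689, and 0.054 without replicate 1 of 24 h). Since the strand used for counting is not given in the sources used here, reads of this pair cannot be told apart. NRARP, a feedback inhibitor of Notch, was at 154, 109 and 205 TPM at 1 h and 49.8, 62.6 and 73.4 TPM at 24 h (log2(fold change) 1.38, adjusted p = 0.00175). FEZF2, a transcription factor of forebrain projection neurons, was at 412, 405 and 535 TPM at 1 h and 204, 198 and 216 TPM at 24 h (log2(fold change) 1.18, adjusted p = 0.0015). TFAP2C, another transcription factor, was at 91.8, 87.3 and 134 TPM at 1 h and 45.4, 45.2 and 50.6 TPM at 24 h (log2(fold change) 1.2, adjusted p = 0.000838). The times were apart in all 3 genes, with the 24 h libraries spread less than those of 1 h.

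Levels at 1 h were fairly even across replicates in PDP1, PRKCB and SLC30A1, genes of metabolism, kinase signaling and ion transport. CXCL12 and NPPC, given beside them, spread more. Of these genes, PDP1, PRKCB and CXCL12 were also named after their values were seen. PDP1, the phosphatase that switches on pyruvate dehydrogenase, was at 129.9, 110.3 and 125 TPM at 1 h, 48.9, 45.03 and 56.1 TPM at 24 h and 47.9, 29.6 and 45.7 TPM in PBS (log2(fold change) 1.35, SE 0.15, adjusted p = 0.000277). PRKCB, a protein kinase C, was at 33.3, 36.7 and 40.8 TPM at 1 h, 11.9, 15.2 and 17.02 TPM at 24 h and 16.9, 9.13 and 11.1 TPM in PBS (log2(fold change) 1.41, SE 0.15, adjusted p = 0.000277). In both genes the 24 h libraries lay near those of PBS. SLC30A1, a zinc exporter, was at 46.1, 50.9 and 49.8 TPM at 1 h, 16.9, 19.03 and 21.5 TPM at 24 h and 38.2, 29.1 and 30.8 TPM in PBS (log2(fold change) 1.44, SE 0.17, adjusted p = 0.000459), so that it lay above PBS at 1 h (adjusted p = 0.0381) and below it at 24 h (adjusted p = 0.0143). CXCL12, a chemokine, was at 9.95, 5.96 and 7.32 TPM at 1 h and 2.72, 2.36 and 1.78 TPM at 24 h (log2(fold change) 1.80, adjusted p = 0.00689, and 0.0566 to 0.0589 without replicate 2 or 3 of 24 h). NPPC, the precursor of C-type natriuretic peptide, was at 34.9, 13.5 and 24.5 TPM at 1 h and 0, 2.08 and 0 TPM at 24 h (log2(fold change) 4.95, adjusted p = 0.043, and 0.0632 to 0.214 without replicate 1 or 3 of 1 h or replicate 1 or 3 of 24 h), with no read in 2 of the 3 libraries at 24 h.

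Fewer genes were lower at 1 h than at 24 h. TXNIP (chromosome 1, 145992435 to 145996579, minus strand), whose product inhibits thioredoxin and restrains glucose uptake, was at 121, 126 and 128 TPM at 1 h, 544, 692 and 696 TPM at 24 h and 1162, 738 and 966 TPM in PBS. The libraries at 1 h were close to each other and far below all others (log2(fold change) -2.27, SE 0.16, adjusted p = 2.99e-06). At 24 h TXNIP was still below PBS, by a smaller amount (log2(fold change) -0.61, adjusted p = 0.0409). ARRDC3, an arrestin-related gene of the same family as TXNIP, was at 21.6, 27.04 and 15.8 TPM at 1 h, 66.8, 71.8 and 55.2 TPM at 24 h and 109.8, 115 and 120.5 TPM in PBS (log2(fold change) -1.49, SE 0.27, adjusted p = 0.0191, and 0.0788 to 0.101 without replicate 1 of 1 h or replicate 1 or 2 of 24 h). The 3 groups did not overlap in this gene, with PBS the highest. MYBL2, a cell cycle transcription factor, was at 92.6, 72.8 and 121 TPM at 1 h, 181, 206 and 221 TPM at 24 h and 128, 78.2 and 137 TPM in PBS (log2(fold change) -1.04, SE 0.15, adjusted p = 0.00416). The 24 h libraries were the high ones here, above PBS by 0.80 on the log2 scale (adjusted p = 0.0102). TICRR, needed to start DNA replication, was at 15.5, 7.65 and 18.2 TPM at 1 h, 27.6, 29.9 and 33.9 TPM at 24 h and 32.8, 26.3 and 27.8 TPM in PBS (log2(fold change) -1.12, adjusted p = 0.0167, and 0.0622 to 0.0801 without replicate 1, 2 or 3 of 24 h), and its 24 h libraries overlapped those of PBS. The summed level of the 6 dividing progenitor markers was also lower at 1 h, at 818 to 854 TPM against 962 to 1041 at 24 h, and its part in the results for MYBL2 and TICRR was not tested. SIX4, a homeobox factor, was at 1.03, 1.43 and 2.48 TPM at 1 h and 4.54, 5.93 and 6.32 TPM at 24 h (log2(fold change) -1.68, adjusted p = 0.0229, and 0.0521 to 0.112 with any library left out but replicate 3 of 1 h). GPNMB, a membrane glycoprotein, was at 0.738, 0.333 and 0.226 TPM at 1 h and 1.52, 3.69 and 1.47 TPM at 24 h (log2(fold change) -2.36, adjusted p = 0.0298, and 0.0615 to 0.169 without replicate 2 or 3 of 1 h or replicate 1 or 2 of 24 h). ALOX15, a lipoxygenase, was at 0.188, 0.594 and 1.74 TPM at 1 h and 6.36, 3.67 and 3.98 TPM at 24 h (log2(fold change) -2.39, adjusted p = 0.0419, and 0.0805 to 0.179 with any library left out but replicate 3 of 1 h). GPNMB and ALOX15 did not pass with total gene reads (adjusted p = 0.443 and 0.193). The last 2 of the 9 were the long noncoding RNAs AL683813.2 and STAG3L5P-PVRIG2P-PILRB.

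**Figure D3:**
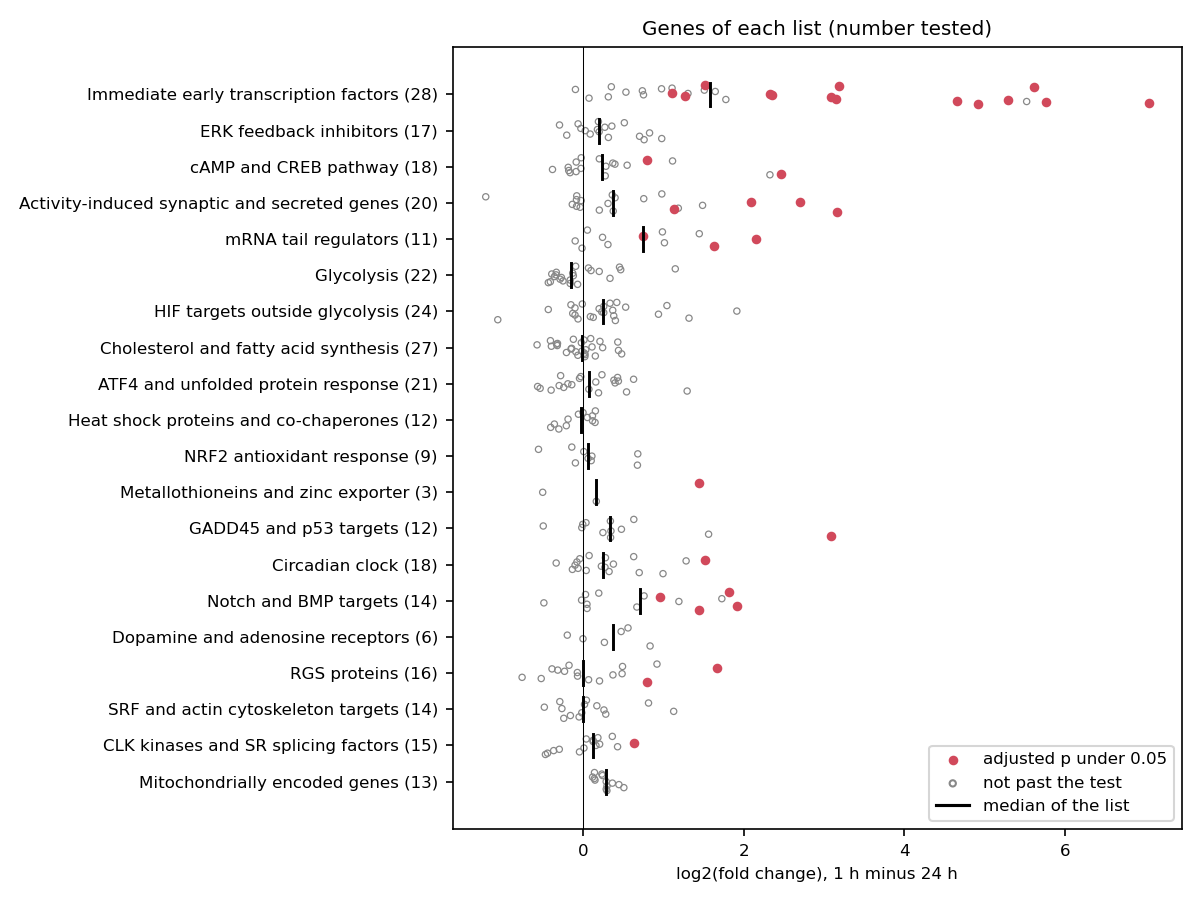
Log2(fold change) between 1 h and 24 h (x axis) of the tested members of 20 gene lists (y axis, number tested in parentheses), with filled points for genes past the test and a bar at the median of each list. Immediate early transcription factors have a median of 1.58, and the fitted values of EGR2 and NPAS4 on the far right depend on the prior count of the fit, while glycolysis, at −0.15, has no filled point.

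Several lists had no member past the test between the times while many of their members were below PBS at both times. Of 22 genes of glycolysis, none passed between 1 h and 24 h with edgeR or DESeq2 on all libraries (5 at an unadjusted p under 0.05, median log2(fold change) −0.15). Against PBS, 14 of them were lower at 1 h (2.52% of all genes tested were) and 13 at 24 h (1.91%), with medians of −0.98 and −0.91 against 0.02 and 0.01 over all genes. PGK1, a glycolytic kinase, was at 72.5, 57.1 and 85.04 TPM at 1 h, 71.2, 82.3 and 89.5 TPM at 24 h and 233, 142 and 249.8 TPM in PBS. The lactate exporter SLC16A3 was at 1.34, 0.456 and 1.84 TPM at 1 h, 0.148, 0.877 and 0.562 TPM at 24 h and 9.94, 4.74 and 12.7 TPM in PBS. In both genes the 2 dopamine groups overlapped each other and lay below every PBS library. Targets of HIF, the factor of the hypoxia response, outside glycolysis were similar, with none of 24 past the test between the times with edgeR (4 at an unadjusted p under 0.05, EGLN3 and LOX higher with DESeq2, median 0.24). Of all genes, 11.4% had an unadjusted p under 0.05 and DESeq2 called 1.61% higher. Of the 24 targets, 12 were lower than PBS at 1 h (2.52% of all genes were) and 14 at 24 h (1.91%). BNIP3, a mitophagy receptor, was at 27.97, 23.8 and 30.3 TPM at 1 h, 24.2, 25.9 and 30.7 TPM at 24 h and 80.05, 82.7 and 105 TPM in PBS. VEGFA, the vascular growth factor, was at 29.9, 19.2 and 37.7 TPM at 1 h, 18.8, 23.1 and 25.8 TPM at 24 h and 66.7, 52.9 and 78.8 TPM in PBS. Without the 4 libraries, SLC2A3 and PFKFB3 of glycolysis and VEGFA were higher at 1 h than at 24 h (log2(fold change) 0.59, 0.65 and 0.50), as were 2.13% of all genes. Every dopamine library of BNIP3 and VEGFA was below the lowest PBS library. Among 27 genes of cholesterol and fatty acid synthesis, none passed between the times with either tool (3 at an unadjusted p under 0.05, median −0.02). Of these, 10 were below PBS at 1 h (2.52% of all genes were) and 11 at 24 h (1.91%). INSIG1, a regulator of sterol synthesis, was at 92.1, 71.99 and 109.8 TPM at 1 h, 77.9, 113 and 114 TPM at 24 h and 320.4, 166 and 248 TPM in PBS. Genes above PBS at both times were found among CLK kinases and SR splicing factors, 6 of 15 at 1 h (3.25% of all genes tested were higher) and 4 at 24 h (1.4%), while CLK1 and CLK4 were below PBS at 1 h and CLK1 at 24 h. SRSF3 was at 115, 160.0 and 157 TPM at 1 h, 96.8, 115 and 132 TPM at 24 h and 58.5, 32.8 and 54.4 TPM in PBS. SRSF6, the one member past the test between the times on exon reads of all libraries, was at 172, 145 and 201 TPM at 1 h, 106, 117 and 126 TPM at 24 h and 81.4, 67.1 and 75.5 TPM in PBS (log2(fold change) 0.63, adjusted p = 0.0128, and 0.054 to 0.0918 without replicate 1, 2 or 3 of 24 h). CLK1 was lower at 1 h than at 24 h with total gene reads (-0.64, adjusted p = 0.0106, and 0.209% of all genes were). Without the 4 libraries, CLK1 (-0.77, adjusted p = 0.00151) and SRSF1 (-0.40, adjusted p = 0.03) were lower (1.48% of all genes were).

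In the remaining lists few genes passed between the times. Of all genes, 0.447% passed as higher at 1 h and 0.145% as lower with edgeR, and 1.61% were higher with DESeq2. An unadjusted p under 0.05 (edgeR) was found in 11.4% of all genes. With edgeR, none of 21 genes of ATF4 and the unfolded protein response passed (6 at an unadjusted p under 0.05, 2 higher with DESeq2, median 0.07), none of 14 targets of serum response factor in the actin cytoskeleton (2, 0 and 0.00), none of 12 heat shock genes (0, 0 and −0.03) and none of 9 NRF2 genes (0, 0 and 0.06). All 13 mitochondrially encoded genes lay above 0, as did 8481 of all 16541 genes. Their median was 0.29, and 0.12 without the 4 libraries rich in mitochondrial reads. None of the 13 passed the test with either tool or had an unadjusted p under 0.05. One of 18 circadian clock genes (BHLHE40, median 0.25) and 1 of 3 metallothionein and zinc genes (SLC30A1) passed as higher (0.447% of all genes did). Without the 4 libraries, 4 genes of the ATF4 list were higher (ATF4, TRIB3, HSPA5 and CALR), as were CNN2 of the actin list and the clock genes PER1 and PER2 (2.13% of all genes were). ASNS was lower (1.48% of all genes were).

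Against PBS, 399 genes were DEGs at 1 h (2.41% of the genes tested) and 196 at 24 h (1.18%). The second count was 129 without replicate 1 of PBS and 104, 90 and 83 without replicates 1, 2 and 3 of 24 h. Immediate early genes were higher than PBS at 1 h in 13 of 28 (3.25% of all genes were) and lower in 2 (2.52%), and at 24 h higher in 0 (1.4%) and lower in 7 (1.91%), with medians of 1.17 and −0.55. With the replicate block EGR4 lost its call at 1 h (adjusted p = 0.0329, and 0.0613 with the block), which left 12. The 7 were FOS, FOSL2, JUN, IER3, KLF6, MAFF and BHLHE40. FOS was 3.53 above PBS on the log2 scale at 1 h (adjusted p = 2.17e-06) and at -1.12 at 24 h (adjusted p = 0.0291). FOSL2 stood at 2.00 (adjusted p = 0.000286) and -1.15 (adjusted p = 0.0263), and CCN2 at 1.08 (adjusted p = 0.0165) and -1.62 (adjusted p = 0.00367). EGR1, by comparison, was at -0.57 at 24 h, which did not pass (adjusted p = 0.202), and EGR2, with no read in PBS, was at least 59.0-fold higher at 1 h against a floor of 3 counts over the group. Of the 14 Notch and BMP targets, 9 were above PBS at 1 h (3.25% of all genes were) and 2 at 24 h (ID2 and ID4, 1.4%), with medians of 1.55 and 0.57.

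**Figure D4:**
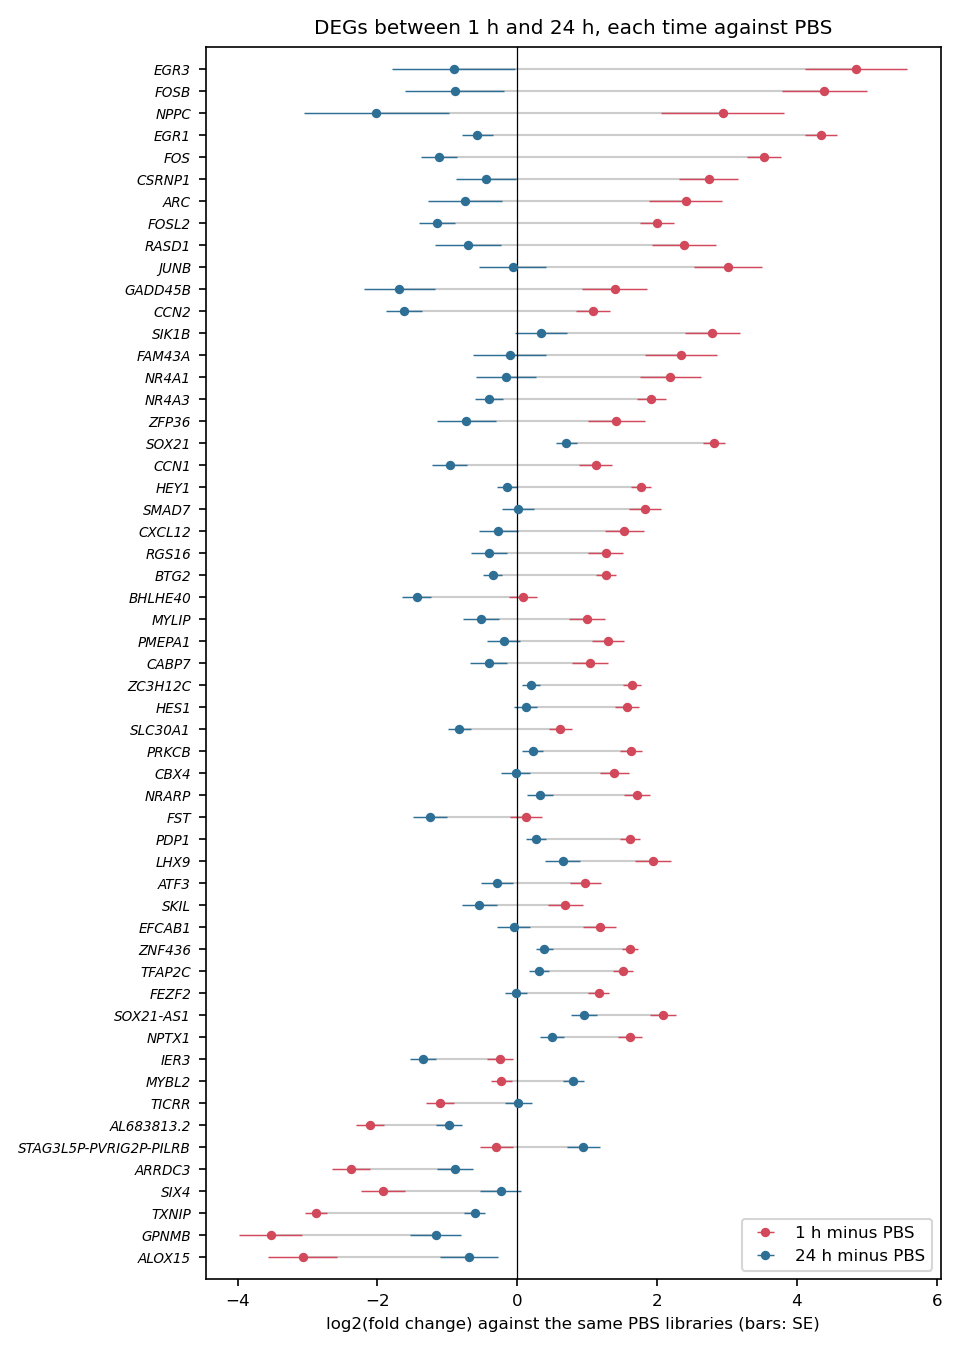
Log2(fold change) against PBS (x axis, bars show SE) at 1 h and at 24 h for the DEGs between the times, one row per gene, without EGR2 and NPAS4. Both times share the PBS libraries. EGR1 lies at 4.35 at 1 h and −0.57 at 24 h, while IER3, BHLHE40 and FST lie near 0 at 1 h and below −1.2 at 24 h.

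Reads in introns, which come largely from unspliced RNA, were set beside the exon reads for 4 DEGs chosen after their values were seen. FST had 137, 455 and 331 intron reads at 1 h and 20, 46 and 26 at 24 h, and PMEPA1, an inhibitor of TGF-β signals, had 462, 505 and 997 and 54, 137 and 93. The log2(fold change) of intron reads alone was 3.19 for FST (adjusted p = 0.00128) and 2.85 for PMEPA1 (adjusted p = 0.00894), against 1.37 and 1.49 for exon reads. For NR4A3 there were 92, 115 and 94 intron reads at 1 h and 4, 10 and 16 at 24 h (3.30 against 2.32, adjusted p = 0.00927). TXNIP had 0, 15 and 3 intron reads at 1 h and 81, 120 and 71 at 24 h, with -4.15 on the log2 scale (adjusted p = 0.00264). In all 4 genes these counts, which are not scaled for depth, did not overlap between the times. The share of all genes without such overlap was not computed. Of the 41 DEGs with enough intron reads to be tested, 9 passed on intron reads alone in the direction of the exon reads. Besides these 4 they were ZC3H12C, PDP1, SKIL, TFAP2C and AL683813.2. Of all 19649 genes, 0.28% passed as higher on intron reads and 1.0% as lower. Since the 41 were chosen by exon reads of the same libraries, a comparison with these shares is not an independent test. On intron reads alone 153 genes were DEGs, and 9 of these were DEGs on exon reads. The share of reads in introns was highest in replicate 2 of 1 h, and its part in these values was not tested.

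After chronic dosing, the same contrast between 1 h and 24 h could be set against the acute one. The difference between the contrasts passed for 3 genes of 16541 (0.0181%), FOS, EGR1 and NCOA5. FOS was at 32.7, 22.8 and 38.2 TPM at 1 h and 9.24, 8.29 and 12.1 at 24 h after chronic dosing (1.73 on the log2 scale), so that its drop was larger after the acute dose by 2.92 (SE 0.34, adjusted p = 0.00315). EGR1 was at 55.2, 49.97 and 55.5 and 7.76, 8.73 and 9.59 TPM (2.71 on the log2 scale), a difference of 2.21 (SE 0.30, adjusted p = 0.0143). Every chronic library of FOS lay below the acute ones at 1 h and above them at 24 h, and EGR1 was likewise lower at 1 h but overlapped at 24 h. NCOA5, a coregulator of nuclear receptors, went the other way. It was at 82.3, 58.4 and 95.5 TPM at 1 h and 58.3, 57.1 and 63.96 at 24 h after the acute dose, and at 117, 71.04 and 97.3 and 14.3, 14.5 and 13.6 TPM after chronic dosing, beside 14.3, 15.8 and 17.4 in PBS. At 24 h it was thus near the level of 1 h after the acute dose and near that of PBS after chronic dosing (difference of the contrasts -2.38, SE 0.24, adjusted p = 0.00126). NCOA5 passed whichever of the 12 libraries was left out and with total gene reads (adjusted p = 0.0198), and FOS with each library left out (adjusted p up to 0.0316) but not with total gene reads (adjusted p = 0.0614). EGR1 missed the threshold in 6 of the 12 cases, without replicate 1 of acute 1 h, replicate 3 of acute 24 h, replicate 1 or 3 of chronic 1 h or replicate 2 or 3 of chronic 24 h (adjusted p = 0.0585 to 0.112), and with total gene reads (adjusted p = 0.125). Without replicate 2 of the acute 1 h libraries, 22 genes passed. The cultures of the regimens also differed in age.

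The contrast between 1 h and 24 h was also set against that after a single dose of 1 mM, and the difference between the doses passed for 41 of 18390 genes (0.223%). HEY1 was at 149.9, 131 and 135 TPM at 1 h and 186, 134 and 139 at 24 h after 1 mM, with overlap, so that its difference at 1 µM was larger by 1.82 (SE 0.17, adjusted p = 1.58e-06). PRKCB was at 8.08, 8.14 and 8.06 and 11.3, 7.32 and 8.41 TPM after 1 mM, also with overlap (difference 1.33, SE 0.20, adjusted p = 0.00333). H2AC6, a histone H2A gene, was at 76.5, 61.4 and 63.4 TPM at 1 h and 17.9, 21.9 and 18.7 at 24 h after 1 mM, and at 6.11, 5.55 and 10.1 and 11.0, 9.17 and 12.9 after 1 µM (difference -2.52, SE 0.40, adjusted p = 0.00469). The genes AC021078.1 and AC007906.2 differed by 1.79 (adjusted p = 0.00287) and -3.12 (adjusted p = 0.00495). The doses came from separate experiments with separate PBS cultures. Replicate 1 of 1 mM at 24 h stood apart, with EGR1 at 696 TPM against 27.8 and 25.8 in the others, and without it all 5 genes still passed (HEY1 1.76, PRKCB 1.24 and H2AC6 -2.39). TXNIP, at 388, 237 and 228 TPM at 1 h and 961, 156 and 271 at 24 h after 1 mM, missed the threshold (difference -1.88, adjusted p = 0.104), and without that library it passed (-2.83, adjusted p = 0.00143). The count of 41 rested on single libraries of both doses. It became 9, 7 and 10 without replicates 1, 2 and 3 of 1 mM at 1 h, 65, 779 and 536 without those of 1 mM at 24 h, 17, 63 and 529 without those of 1 µM at 1 h, and 11, 9 and 10 without those of 1 µM at 24 h.

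**Figure D5:**
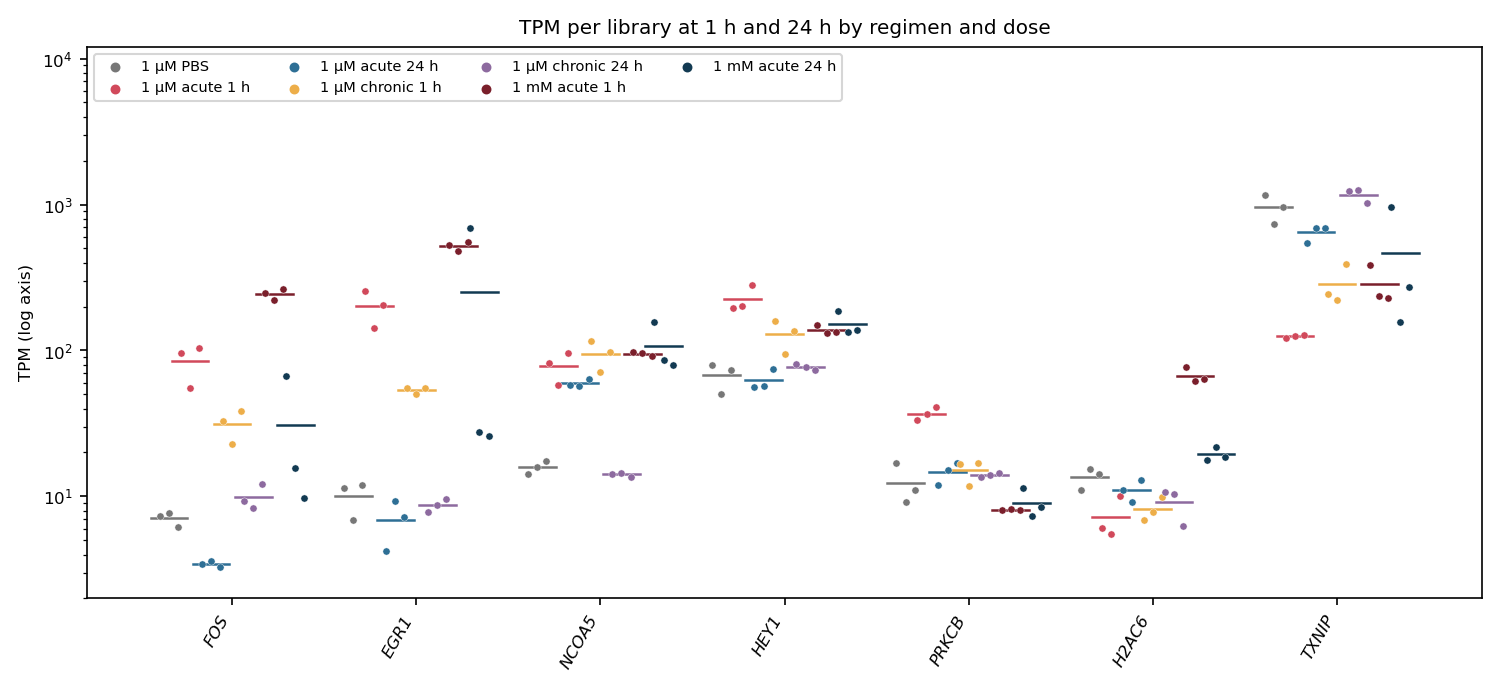
TPM on a log axis of FOS, EGR1, NCOA5, HEY1, PRKCB, H2AC6 and TXNIP in the 1 µM PBS, acute and chronic libraries and in the 1 mM acute libraries, one dot per library with a line at the mean. NCOA5 lies between 13.6 and 14.5 TPM 24 h after chronic dosing and between 57.1 and 64.0 TPM 24 h after the acute dose.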

How the data were processed

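Total RNA of H9 hMSN-like cells was sequenced by the authors, who mapped the reads in CLC Genomics Workbench to the human genome (build hg38, per the submitters' processing notes). The strand setting is not given in the sources used here, and 2 providers sequenced the libraries, without a statement of which. The deposited tables give read counts per gene on exons, on introns and in total, and TPM, which the authors derived from exon reads and exon length. Tables of 60676 genes were read for 30 libraries, the 1 µM and 1 mM experiments, and no pair of them agreed within sampling noise (chi-square per gene 2.49 or more in every pair). Libraries of a group are labelled as replicates, and p-values measure only the spread between libraries of a group. That spread was estimated from all groups in a fit, with information shared across genes. Groups and replicate numbers were taken from titles.

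Exon reads were tested with edgeR 4.0.16 (R 4.3.3, limma 3.58.1) after filterByExpr (minimum count 10, minimum total 15) and TMM normalization, with glmQLFit, glmQLFTest and Benjamini-Hochberg adjustment over all tested genes. The 15 libraries of the 1 µM experiment, 5 groups of 3, entered one fit, and the 30 libraries of both doses another for the interaction with dose. SEs were derived from the fold changes and their F statistics. Levels are given as the TPM of each library. The test was checked on simulated data. Named genes were up to 12 protein-coding DEGs with the largest change in each direction and no overlap (7 were lower), members of the gene and marker lists, FOS, FOSB, EGR1, JUNB, ARC, GADD45B, TENT5B and the 5 genes with the smallest adjusted p in each interaction, and others are said to be named after their values were seen. Same-numbered libraries deviated together between 1 h and PBS (correlations over genes 0.12, 0.32 and 0.19) and not between 1 h and 24 h or 24 h and PBS, so that by a limit of 0.1 for every pair the numbers, which come from the titles, were taken as pairing 1 h with PBS. This pairing is uncertain. Replicate 3 of 1 h deviated more closely with replicate 1 of PBS (0.30) than with replicate 3 of PBS (0.19). The libraries, lists and tests were chosen with earlier results of these data known. Alternatives were total gene reads, replicate block, uniquely mapped reads, DESeq2 1.42.0 (size factors and Wald test), no filter or a stricter one, a fit of 2 groups, the share of intron reads as a term, thinning to 5755919 reads, a mean TPM of 0.75, no threshold on the fold and each library left out. Intron reads alone, and fits without the 4 libraries of over 10% mitochondrial reads, were added after seeing the data. Motifs were searched in RefSeq sequences with Python 3.11.15.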

Additional observations from a re-analysis of the deposited data

Results flagged for a closer look

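The difference between 1 h and 24 h was not the same after acute and after chronic 1 µM dopamine for 3 genes, by the test of the difference between the contrasts (edgeR, Benjamini-Hochberg). It was larger after the acute dose by 2.92 on the log2 scale for FOS (SE 0.34, adjusted p = 0.00315) and by 2.21 for EGR1 (SE 0.30, adjusted p = 0.0143). For NCOA5 it was smaller after the acute dose, with a difference of -2.38 (SE 0.24, adjusted p = 0.00126), in a gene at 57.1 to 64.0 TPM at 24 h after the acute dose and 13.6 to 14.5 TPM at 24 h after chronic dosing. With each of the 12 libraries left out in turn FOS and NCOA5 kept their call, and EGR1 lost it in 6 cases (adjusted p = 0.0585 to 0.112). With total gene reads NCOA5 passed (adjusted p = 0.0198), and FOS (0.0614) and EGR1 (0.125) did not.

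Between 1 µM and 1 mM given once, the contrasts differed most clearly for 5 genes. The difference was 1.82 for HEY1 (SE 0.17, adjusted p = 1.58e-06), 1.79 for AC021078.1 (SE 0.26, adjusted p = 0.00287), 1.33 for PRKCB (SE 0.20, adjusted p = 0.00333), -2.52 for H2AC6 (SE 0.40, adjusted p = 0.00469) and -3.12 for AC007906.2 (SE 0.50, adjusted p = 0.00495). All 5 kept their call with each of the 12 libraries of this contrast left out in turn, with total gene reads and with the replicate block.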

How the results depend on the processing

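All 57 DEGs between 1 h and 24 h kept their direction wherever they were tested, except ALOX15 and GPNMB, whose log2(fold change) turned to 0.76 (adjusted p = 0.652) and 2.62 (adjusted p = 0.426) on intron reads alone. The count of 57 was 153 on intron reads alone, 141 with DESeq2's Wald test, 25 with only the 2 groups compared, 153 with the share of intron reads as a term, 156 without the 4 libraries rich in mitochondrial reads and 98 with no threshold on the fold. Leaving out 1 library gave 31 to 81. For genes higher at 1 h (48) the counts were 108 with DESeq2, 24 with 2 groups, 125 with the intron share as a term, 125 without the 4 libraries, 74 with no threshold on the fold and 29 to 68 without 1 library. For genes lower (9) they were 114 on intron reads alone, 33 with DESeq2, 1 with 2 groups, 28 with the intron share as a term, 31 without the 4 libraries, 24 with no threshold on the fold and 2 to 28 without 1 library. DESeq2 called 56 of the 57, the fit without the 4 libraries 56, total gene reads 37, and fits without 1 library between 30 and 51. The count at 24 h against PBS (196) was 83 to 152 without 1 library, that of the interaction with chronic dosing (3) was 2 to 22, and that with dose (41) was 106 with total gene reads, 24 with the replicate block and 7 to 779 without 1 library. The cause of these shifts was not tested. Samples that share a replicate number did not all deviate together between 1 h and 24 h (correlations -0.10, -0.21 and 0.20 over genes). The numbers were therefore not taken as pairing the libraries of this comparison. Replicate 2 of 1 h and replicate 1 of 24 h, both rich in mitochondrial reads, deviated together (0.30). With 1 such library in each group, these correlations cannot tell whether the numbers pair the libraries. With the replicate block the count was 52, and 51 of the 57 were still DEGs. Against PBS at 1 h, where the numbers were taken as pairing the libraries though this is uncertain, the block gave 393 DEGs in place of 399. The block changed the call of no gene whose adjusted p against PBS at 1 h is given other than EGR4. At this depth a gene below about 1 TPM rests on few reads.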
